A study of Caenorhabditis elegans with 2 samples.

Results

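Among the reproducible binding regions mapped for the nuclear hormone receptor NHR-25 in Caenorhabditis elegans larvae, the 500 with the highest signal were examined, and the other 4517 served for comparison. The 500 were chosen by the authors' own height for each region, taken from the list of peaks that passed the irreproducible discovery rate (IDR) step on the ce11 assembly, with ties broken by chromosome and then start. They made up 9.97% of that list. Because height chose them, heights are described without a test.

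Chromatin immunoprecipitation with sequencing (ChIP-seq) was performed on whole worms at the L3 larval stage, of both sexes and unknown age, in 2 samples labelled biological replicates 1 and 2 of a single group. All worms were of strain OP33, with the genotype unc-119(ed3) III; wgIs33, a transgenic line that stably makes NHR-25 with GFP and FLAG fused to its C terminus. Chromatin was sheared by sonication. No untagged or mutant group was compared, the antibody is named in the labels only by its target, and a whole-worm sample cannot tell which cells held a bound site.

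NHR-25 is the worm member of the SF-1/FTZ-F1 family of nuclear receptors, which bind DNA largely as monomers. The receptor is known for its place in epidermal development, in molting and in the choice of cell fates in the vulva and seam. A receptor of this family recognises an AAGGTCA-type element, preceded by a few further bases that the C-terminal extension of its DNA-binding domain contacts. Promoters at which many unrelated factors give ChIP-seq peaks are also known in worms, and overlap with them was not tested.

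The sequences below carry the results that follow. They were read from the RefSeq genome of the WBcel235 assembly, which is ce11, and each is written 5′ to 3′ on the strand given. The first set shows members that hold the extended receptor element, with the element in capitals. The element was searched as CAAGGTC or CAAGGCC preceded by C or T and followed by A or G.
din-1 chrII:11636072-11636102 minus strand: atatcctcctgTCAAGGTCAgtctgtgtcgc
dsh-2 chrII:5081431-5081461 plus strand: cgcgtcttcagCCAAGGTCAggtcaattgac
ccch-1 chrV:11531281-11531311 plus strand: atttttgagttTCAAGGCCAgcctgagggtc
gpa-12 chrX:9246755-9246785 plus strand: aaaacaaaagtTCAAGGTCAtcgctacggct
lim-4 chrX:3867930-3867960 minus strand: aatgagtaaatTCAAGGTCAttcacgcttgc
lin-29 chrII:11928972-11929002 plus strand: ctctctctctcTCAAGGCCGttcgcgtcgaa

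The second set shows the word AGACGCAG, or its complement, in capitals. It is shown because no other 8-letter word set the summits of the tallest peaks further apart from the sequence beside them.
Y111B2A.12 chrIII:12612615-12612695 plus strand: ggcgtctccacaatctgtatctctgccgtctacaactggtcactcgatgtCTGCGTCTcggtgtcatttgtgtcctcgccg
sec-61.G chrV:10897325-10897405 plus strand: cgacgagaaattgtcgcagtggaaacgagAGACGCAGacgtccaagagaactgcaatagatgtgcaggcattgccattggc
drr-2 chrIII:13643698-13643778 plus strand: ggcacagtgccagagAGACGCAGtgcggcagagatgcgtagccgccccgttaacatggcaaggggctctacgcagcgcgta
epg-9 chrIV:2602132-2602212 plus strand: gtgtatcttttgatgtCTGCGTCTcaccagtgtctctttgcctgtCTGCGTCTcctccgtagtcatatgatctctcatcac
pqn-41 chrIII:1926561-1926641 plus strand: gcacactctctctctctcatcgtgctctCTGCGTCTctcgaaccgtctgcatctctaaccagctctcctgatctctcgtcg

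The third set shows summits upstream of ribosomal protein genes, with the word GGCCTAAA or its complement in capitals, because that word was nearly absent from the other tall peaks.
rps-28 chrIV:1659206-1659326 plus strand: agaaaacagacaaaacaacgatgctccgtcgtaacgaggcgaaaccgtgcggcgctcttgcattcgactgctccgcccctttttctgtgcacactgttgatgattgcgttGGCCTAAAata
rpl-7A chrIV:4390593-4390713 plus strand: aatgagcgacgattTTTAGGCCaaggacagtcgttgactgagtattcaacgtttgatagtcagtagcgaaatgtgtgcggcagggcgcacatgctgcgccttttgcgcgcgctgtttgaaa
rps-4 chrIV:7084897-7085017 plus strand: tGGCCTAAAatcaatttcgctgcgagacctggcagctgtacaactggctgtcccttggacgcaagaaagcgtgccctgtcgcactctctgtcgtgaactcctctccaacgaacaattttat

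The last set shows the tallest peak of all, which held none of the words above within 100 bp of its summit, and the member with the longest GA tract, whose complement stands in capitals.
iff-2 chrII:8561382-8561502 plus strand: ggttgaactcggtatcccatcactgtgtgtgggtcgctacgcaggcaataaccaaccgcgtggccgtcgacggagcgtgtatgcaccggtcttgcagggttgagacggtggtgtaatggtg
Y24D9A.6 chrIV:4401077-4401157 plus strand: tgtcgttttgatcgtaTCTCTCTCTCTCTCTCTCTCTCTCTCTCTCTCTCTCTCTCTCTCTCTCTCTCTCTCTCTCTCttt

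The deposited signal gives each peak a height on a scale that the labels do not define. The tallest peak reached 919.6 and lay 75 bp upstream of iff-2, a gene for a translation factor of the eIF5A family. Height fell quickly with rank, to 592.8 at rank 10, 307.5 at rank 100 and 232.1 at rank 250. The median of the 500 was 232.0, with quartiles of 196.7 and 285.6, and that of the other 4517 peaks was 69.5. The tallest 500 held 26.7% of the summed signal of all reproducible peaks. Each of the 500 sat at the highest −log10 q-value of the list, 3.86, so the q-value does not rank them.

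The lower limit of the group fell in a smooth stretch of heights. The 5 regions just inside it were near R02F2.1 at 174.3, wdr-23 at 174.2, cdo-1 at 174.2, Y62E10A.13 at 174.0 and C26B9.2 at 173.9. The 5 regions just outside it were near pqn-87 at 173.8, mrpl-49 at 173.3, farl-11 at 173.3, K10C3.4 at 173.3 and T22C1.11 at 173.0. The mrpl-49 peak also lay upstream of rpl-28 and the farl-11 peak upstream of rpl-33, both genes of the large ribosomal subunit, so membership of the group is a matter of small differences there.

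Each replicate ranked the members much as the pooled data did. Of the 500, 412 stood among the 500 tallest regions of replicate 1 (82.4%) and 423 among those of replicate 2 (84.6%). The 339 that stood in both lists were 67.8% of the members (exact 95% interval 63.5 to 71.9%), 73 stood only in the first, 84 only in the second and 4 in neither. A summit within 100 bp was found in both replicate lists for 499 members, the exception being the peak near F58D5.5 at rank 312, which had no match in replicate 2. Both replicates fed the ranking, so these counts describe its make-up.

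Most members had similar heights in both replicates. Over the 499 matched members, the height in replicate 2 relative to replicate 1 had a median log2 ratio of 0.26 with a standard deviation of 0.43, against a median of 0.10 and a standard deviation of 0.75 over 4189 matched peaks of the remainder. Only 24 members (4.81%) differed by more than 1 log2 unit, against 16.4% of the other peaks. The members that leaned furthest to replicate 2 lay near klc-1 (53.7 in replicate 1, 187.7 in replicate 2), F52G3.1 (41.2 and 138.7), hsp-3 (80.7 and 259.0), aagr-3 (55.9 and 154.6) and T24B8.3 (80.0 and 196.0). hsp-3 encodes an endoplasmic reticulum chaperone of the BiP kind and aagr-3 the catalytic subunit of a glucosidase of the same compartment. The members that leaned furthest to replicate 1 lay in an intron of nhr-14 (131.0 and 57.2) and upstream of col-94 (120.6 and 68.3), C05B5.8 (116.0 and 67.3), zyg-11 (127.6 and 74.5) and C02E7.7 (166.6 and 101.6). With 1 value per replicate, no single imbalance can be tested.

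**Figure D1:**
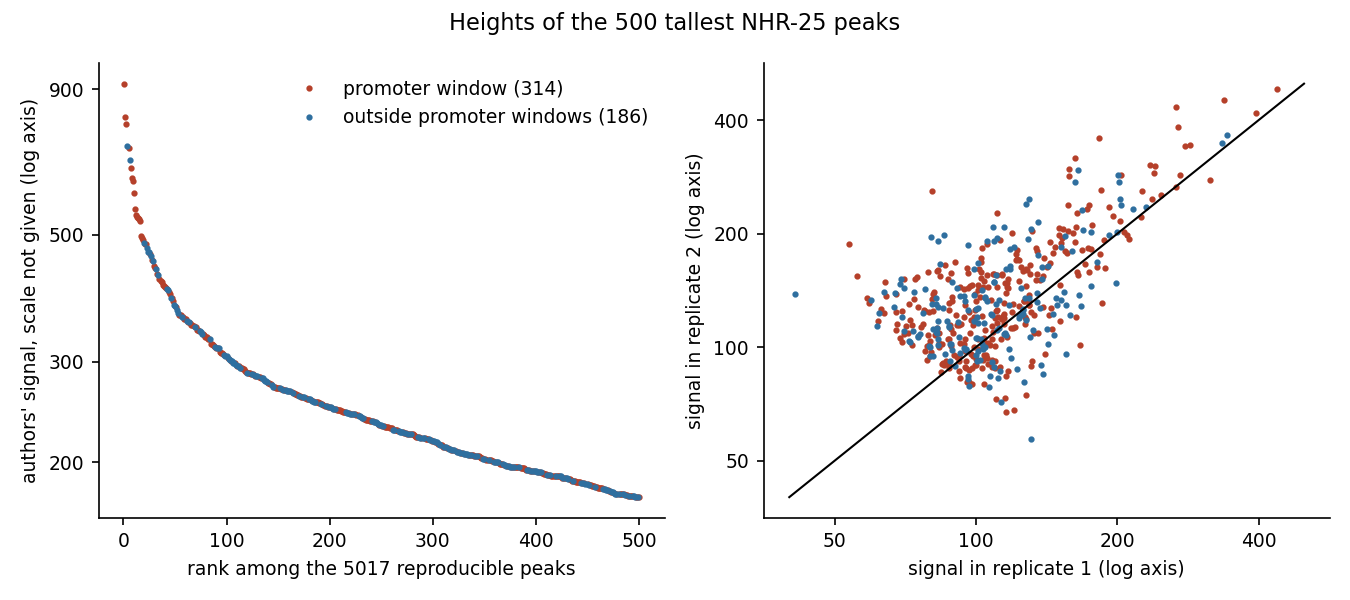
Left, the authors' signal of the 500 tallest peaks on a log axis against rank, coloured by whether the summit lay in a promoter window (314) or not (186). Right, signal of each matched member in replicate 1 against replicate 2 on log axes, with the line of equality; 24 of 499 lie more than 1 log2 unit from it, and the klc-1 peak (53.7 and 187.7) is the farthest above it.

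The tallest peaks stood close upstream of genes more often than the other peaks. A promoter window was taken as 2000 bp upstream to 200 bp downstream of the annotated 5′ end of a protein-coding gene. By that rule 314 of the 500 members (62.8%) were promoter peaks, against 56.6% of the remainder, a difference of 6.21 percentage points (95% Newcombe interval 1.66 to 10.6). The difference was 8.83 points in replicate 1 alone and 4.28 points in replicate 2 alone (interval −0.31 to 8.72), so without replicate 1 its interval takes in 0. The share with a summit 0 to 500 bp upstream of the nearest 5′ end was 40.2% against 32.1%, a difference of 8.05 points (3.63 to 12.6). Throughout, such intervals cover the counting of peaks only, and neighbouring peaks are not independent.

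The most populated 100 bp stretch for the members lay 200 to 300 bp upstream of the annotated 5′ end, with 64 summits (12.8%). Promoter peaks of the group had a median position 272.5 bp upstream of their nearest gene, with quartiles at 144.5 and 676.5 bp upstream. The other promoter peaks had nearly the same median, 269 bp upstream, with quartiles at 114 and 895 bp upstream. Many worm transcripts are trans-spliced, so an annotated 5′ end can lie downstream of the true start of transcription.

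**Figure D2:**
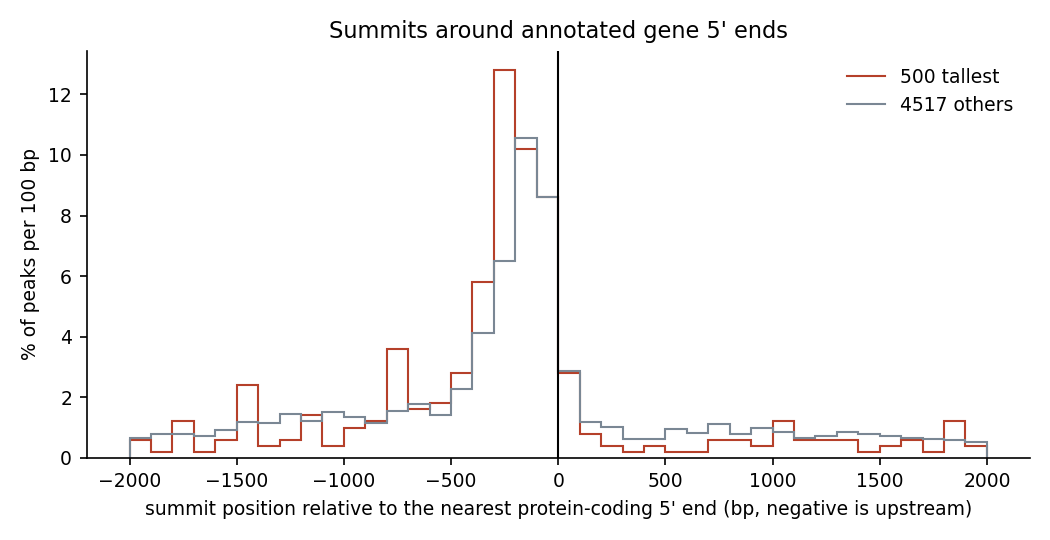
Percentage of summits per 100 bp by position relative to the nearest protein-coding 5′ end, negative values lying upstream, for the 500 tallest and the other 4517 peaks. The members reach 12.8% between 200 and 300 bp upstream, and both curves are low downstream of the 5′ end.

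Tall peaks were found between gene pairs that start in opposite directions. A summit lay in promoter windows on both strands for 124 members (24.8%) and for 16.3% of the remainder, a difference of 8.53 points (4.78 to 12.6). Examples were the summit 168 bp upstream of drr-2 and 178 bp upstream of set-16, a gene for a histone methyltransferase of the MLL kind, and the summit 157 bp upstream of cdc-48.1, a gene for a p97-type AAA ATPase, and 1327 bp upstream of C06A1.7 on the other strand. For such a summit the data do not say which gene it serves. Of the 500, 175 lay in the window of 1 gene, 97 in the windows of 2, 37 of 3 and 5 of 4.

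Coding sequence was poor in tall peaks. A coding exon held the summit of 6 members (1.2%) and of 4.91% of the remainder, a difference of −3.71 points (−4.65 to −2.20). The tallest of them, 475.3 high, lay in pks-1, which encodes a very large polyketide synthase, 15210 bp from the nearest annotated 5′ end. After promoter windows, the most members lay in introns (85) and between genes (81), with 11 in non-coding genes, 6 in other exons and 3 in coding exons outside any promoter window. The intron share, 17% against 20.2%, differed by −3.23 points with an interval that takes in 0 (−6.50 to 0.487).

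The X chromosome held 128 members, or 25.6%, against 21.2% of the remainder, a difference of 4.41 points (0.586 to 8.58). That is 7.22 members per Mb on X, against 6.38 on III, the next densest, and 3.39 on V, the sparsest. The excess over the other peaks did not hold everywhere: it was 1.55 points (−2.12 to 5.60) without replicate 2, 2.08 points (−2.91 to 7.83) for the 250 tallest, and −0.474 points (−4.05 to 3.50) when peaks were ranked by signal divided by width. Worms of both sexes were pooled, and X copy number per cell differs between them. Any bearing of this on the X share was not tested.

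Width moved with height. Members had a median width of 197.5 bp and 79.4% were narrower than 350 bp, while 95.1% of the other peaks were exactly 350 bp wide. The part of this in the results that change under ranking by signal per width was not tested.

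**Figure D3:**
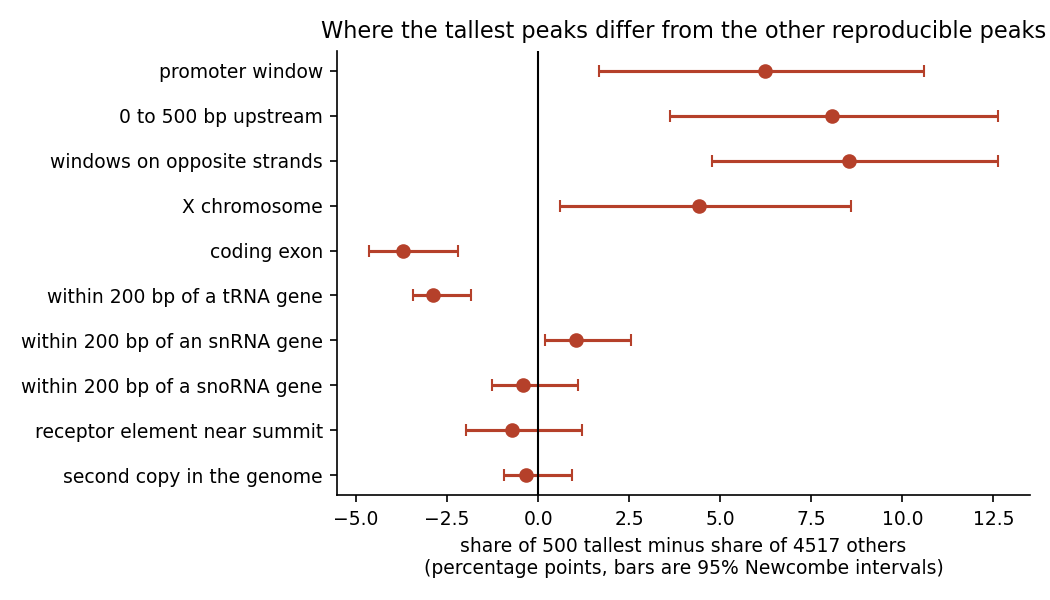
Share of the 500 tallest peaks minus share of the 4517 others, in percentage points, for 10 features of position and sequence; points are differences and bars 95% Newcombe intervals. The 3 differences in position at genes lie above 0 (6.21, 8.05 and 8.53), while the coding exon (−3.71) and tRNA gene (−2.88) differences lie below it.

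Peaks at the gene for NHR-25 itself formed the largest cluster of tall peaks. Joining members whose summits lay within 5 kb of each other gave 401 single members, 32 pairs, 4 groups of 3, 3 of 4, 1 of 5 and 1 of 6. The group of 6 spanned 11298 bp at nhr-25. Its tallest peak, at 714.4 (342.7 in replicate 1 and 365.7 in replicate 2), lay in an intron 622 bp downstream of the annotated 5′ end. A second intronic peak reached 466.7 (229.8 and 235.8) and the promoter peak, 157 bp upstream, 463.5 (158.0 and 297.3). The other 3 were lower: 217.9 beyond the gene, and 206.6 and 193.6 at 3753 and 5216 bp upstream. All 6 were present in both replicates. The strain carries a transgene of nhr-25, and the copy number of this locus was not measured.

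The other clusters lay at genes of several kinds. The group of 5 lay around mdl-1, a Mad-like transcription factor gene, with heights from 210.0 to 317.5. Members formed a group of 4 in introns of kin-20, the casein kinase I gene known from developmental timing, with heights of 425.0, 316.5, 234.6 and 174.6. Another group of 4, up to 407.6, lay in zfp-1 and before F54F2.6, and one, up to 225.5, in F49E2.5. Groups of 3 lay in pqn-41, in ccch-1, at lpin-1 with letm-1, and near col-166. Counting reproducible peaks of any height as neighbours, 32.8% of members and 36.6% of the other peaks had none within 5 kb.

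The 40 tallest members show the mixture of genes at these peaks. Of them, 30 had their summit in a promoter window and 10 did not, and 9 lay upstream of a ribosomal protein gene. Some further kinds of gene were present without being in most of the lists. Genes of chromatin and transcription included set-16, tasp-1 (708.6), which encodes a relative of the protease that cleaves MLL proteins, cbp-1 (437.5), the CBP/p300 acetyltransferase gene, and lin-54, the DREAM complex gene that shares the rpl-12 summit (451.6). Genes of RNA control included puf-9, larp-1, a La-related protein gene that shares a summit with wip-1 (498.1), and ifet-1, a translational repressor gene that shares the rps-1 summit. Genes of protein transport and turnover included sec-61.G, serp-1.1 (541.5), cdc-48.1 (592.8) and imb-3, an importin gene (408.4). The remaining ones included egl-30, a Gq alpha subunit gene (481.5), egg-5 (426.9), eelo-2 (415.2), F02E9.5 (413.9) and ipla-6 with mif-4 (404.9). For lin-54, larp-1 and ifet-1, the other gene named at the summit lay nearer to it. These genes were grouped after their values were seen, and no share is given for the groups.

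Of the 10 tallest members outside promoter windows, 8 lay in introns. They were the nhr-25 pair and those in Y111B2A.12 (674.9), mom-1 (484.9), ppfr-1 (467.1), pqn-41 (458.7), epg-9 (449.3) and kin-20 (425.0). mom-1 encodes the Porcupine enzyme that acylates Wnt ligands, and epg-9 an autophagy protein of the Atg101 family. The remaining ones were the pks-1 coding exon peak and one at 436.1 lying 6035 bp upstream of K02D3.1.

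Of the 19 gene lists counted, those of cytoplasmic ribosomal proteins held the most genes with a tall promoter peak. A protein-coding gene had a member summit in its promoter window in 2.48% of cases (496 of 19973) and any reproducible summit in 18.4%. Against these, 18 of 47 genes of the large subunit (38.3%) and 13 of 31 of the small subunit (41.9%) had a member. In the large subunit the tallest were at rpl-3 (805.1; 395.3 in replicate 1 and 418.5 in replicate 2), rpl-35 (621.3; 278.6 and 341.7), rpl-15 (533.8; 266.5 and 265.9) and rpl-20 (493.2; 247.7 and 252.7). In the small subunit they were at rps-1 (535.4; 234.7 and 303.5), rps-12 (529.2; 239.6 and 290.2), rps-19 (489.4; 237.6 and 247.5) and rps-28 (331.3; 131.3 and 203.8). Replicate 2 gave the higher value at each of these except rpl-15, which was nearly equal in both. The same proteins' genes were also widely bound below the height limit, since 87.2% and 96.8% had some reproducible summit. Among genes with any summit, however, a member was present for 43.9% of the large and 43.3% of the small subunit genes, against 13.5% of all genes. This was not particular to ribosomal genes, since histone genes gave 42.3% on the same measure, though from only 5 member peaks.

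The 31 genes rested on 29 distinct peaks, because 1 summit served rpl-24.1 and rps-10 and another served rpl-36 and rps-14. Counts in single replicates were close, at 17 and 14 genes without replicate 1 and 21 and 14 without replicate 2. Assigning each summit only to its nearest 5′ end left 10 and 7 genes. Mitochondrial ribosomal protein genes were not alike: 1 of 70 (mrps-7, 205.4) had a member, 2 without replicate 2, and 32.9% had any summit.

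Other parts of the protein-making machinery were counted in the same way. Of 37 translation factor genes, 6 had a member, led by iff-2 (919.6; 438.7 in replicate 1 and 483.1 in replicate 2), eef-1G (418.8; 203.1 and 216.1), eef-1A.1 (329.4) and eef-2 (320.8), the last 3 of which act in elongation. None of 19 aminoacyl-tRNA synthetase genes had one, although 9 had a lower peak. Among genes of the translocon and vesicle coats that carry proteins into the secretory pathway, 5 of 29 had a member, led by sec-61.G (627.8; 286.2 and 342.8). The sec-61.B and trap-3 genes shared a peak of 442.0, and trap-2 (334.4) followed. The sec-61 genes encode subunits of the channel itself and the trap genes its associated proteins.

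Smaller machines gave few cases, too few for any comparison between lists. The vacuolar ATPase had 3 of 20 genes (vha-8 at 322.2, vha-12 at 270.9, vha-15 at 198.9), the CCT chaperonin 2 of 8 (cct-1 at 218.5, cct-8 at 186.3), and ATP synthase 2 of 9 (atp-1 at 268.8, asb-2 at 258.9). Both CCT genes dropped out without replicate 1. The proteasome had 1 of 33 (rpn-3 at 237.0) and the Sm and LSm splicing proteins 1 of 14 (snr-4 at 225.7). For histones, 11 of 72 genes had a member, from only 5 peaks, the tallest 94 bp upstream of his-37 (556.1), with his-35 in the same window. The next was between his-67 and his-68 (301.4), then his-24 (220.3). Many histone genes are near-identical copies, and how reads shared between copies were placed is not stated in the labels.

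Molting and cuticle genes gave few tall promoter peaks in number, and lists for vulval and seam fates were not counted here. Of 33 molting genes 2 had a member (6.06%, exact 95% interval 0.743 to 20.2%; ptr-23 at 208.7, mlt-7 at 185.9), though 48.5% had some reproducible summit. mlt-7 encodes a peroxidase that cross-links cuticle. The molting list did not include nhr-25 itself, which had a promoter member at 463.5. These counts cover promoter windows only, so the members outside them near lin-42 (250.8), blmp-1 (232.5) and nhr-23 (232.1) do not enter. Of 156 numbered cuticle collagens 5 had one (3.21%). The tallest were 1782 bp upstream of col-94 (236.5) and 416 bp upstream of col-38 (218.4). Next came those 1102 bp upstream of col-145 (205.1) and 1348 bp upstream of col-107 (196.2). The col-38 summit also lay 423 bp upstream of rpl-5 and is counted among the ribosomal members. Of 21 collagens with names other than col, none had one. The molting interval takes in the 2.48% of all genes, and both shares rest on few genes. Hedgehog-related and patched-related genes gave 2 of 86 (grl-17 at 235.4 and ptr-23), and chemoreceptor families 1 of 1214 (srw-67 at 191.0), where 2.22% had any reproducible summit and 3 genes had a member without replicate 2.

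Other nuclear hormone receptor genes, nhr-25 left out, had a member in the promoter window in 5 of 273 cases (1.83%), near the 2.48% of all genes. These were nhr-14 (373.4), nhr-86 (215.8), nhr-68 (214.4), nhr-47 (193.3) and nhr-21 (175.0), and the count was 3 without replicate 2. Members outside promoter windows do not enter this count. Such members included those in or near nhr-88 (283.0), nhr-19 (277.0), nhr-20 (269.6), nhr-31 (236.0), nhr-23 (232.1), nhr-61 (228.3), daf-12 (177.4) and nhr-40 (174.6). How common such placements are over all genes was not counted. The list of microRNA pathway and heterochronic genes, which set the timing of larval stages, held 4 of 22. They were puf-9 (782.9; 337.5 in replicate 1 and 451.2 in replicate 2), a Pumilio-family repressor of mRNA, nhl-2 (654.8; 269.6 and 382.7) and ain-1 (294.8), both cofactors of microRNA silencing, and din-1 (271.3), a corepressor of the receptor DAF-12. The nhl-2 summit lay nearer to tag-340, and only 1 of these genes kept its member with a window of 500 bp. lin-29, the zinc finger gene that ends the heterochronic pathway, held a member in an intron (176.3).

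**Figure D4:**
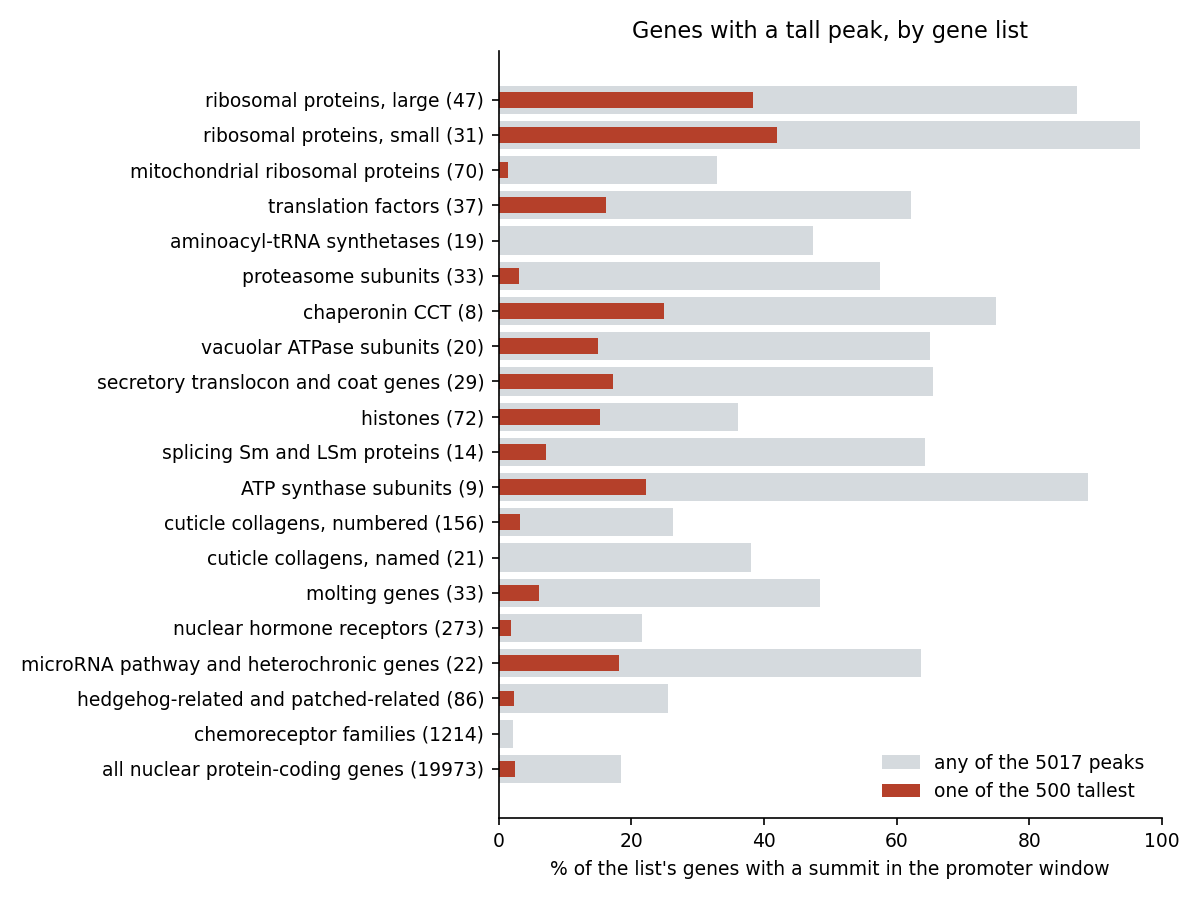
Percentage of genes of each list with a promoter window summit from any reproducible peak (grey bars) or from the 500 tallest (red bars), with the number of genes in brackets; the bottom bar is for all 19973 genes. The 2 cytoplasmic ribosomal lists have the longest red bars (38.3% and 41.9%), while the short lists of named collagens (21 genes) and aminoacyl-tRNA synthetases (19 genes) have none.

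Genes of small RNAs showed opposite patterns by kind. Only 1 member lay within 200 bp of a tRNA gene (0.2%), against 139 of the other peaks (3.08%), a difference of −2.88 points (−3.45 to −1.84). Genes annotated as small nuclear RNA stood near 8 members (1.6%) and 0.576% of the remainder, a difference of 1.02 points (0.193 to 2.56). Of the 8, 4 were the SL2 spliced leader genes sls-2.4 (426.9), sls-2.2 (394.2), sls-2.1 (362.9) and sls-2.8 (219.6). Spliced leader RNAs donate the short exon that is joined to many worm messages. Small nucleolar RNA genes stood near 7 members (1.4% against 1.82%) and microRNA genes near 2, mir-5549 and mir-53. A second copy elsewhere in the genome, at 95% identity over at least 100 bp, was found for 4 summit windows (0.8%, against 1.13%), those near ppfr-1, rpl-7A, F59C6.18 and F40E3.3. At 90% identity over 50 bp the shares were 3.6% and 5.71%, a difference of −2.11 points (−3.61 to 0.00568).

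The receptor's own element was rare at the tallest peaks. Within 100 bp of the summit it was found in 14 members (2.8%, exact 95% interval 1.54 to 4.65%) and in 3.52% of the remainder, a difference of −0.720 points with an interval that takes in 0 (−1.98 to 1.19). Within 50 bp of the summit the difference was −1.41 points (−2.17 to −0.0319), and for peaks ranked by signal per width it was 0.391 points (−1.08 to 2.51). In windows of the same length centred 1000 bp to either side of the member summits it stood in 0.4% and 0.2%. No member held the reversed control pattern, while 0.354% of the remainder did. The 7-letter core alone stood in 4.8% of members against 7.02% (difference −2.22 points, −3.96 to 0.134).

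The element stood in only 2.8% of members and 3.45% of all reproducible peaks, so a run of peaks without it says little. None of the 75 tallest members held it, a cut set by the first member that did. The tallest that did lay between genes 2421 bp upstream of din-1 (335.5), followed by those near sptf-3 (328.9), dsh-2 (288.6), ccch-1 (267.2), Y51A2D.21 (243.4), T23B3.8 (211.5), col-166 (208.6), gpa-12 (206.4), ifbp-1 (202.5) and cyp-13A2 (196.4). The remaining ones were near lim-4, snt-1, lin-29 and C44C1.1. dsh-2 encodes a Dishevelled protein of Wnt signalling and sptf-3 a transcription factor of the Sp family. In position they differed from most members: the element stood in 3 of 314 promoter members (0.955%, exact interval 0.197 to 2.77%) and in 11 of 186 outside promoter windows (5.91%, 2.99 to 10.3%). The same split was not made for the other peaks, so it cannot be called particular to tall ones. The printed elements lay between 4 bp (lin-29) and 59 bp (ccch-1) from their summits.

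The core of the element was also less centred on tall summits than on others. In the 50 bp before the summit, by genome coordinates, it stood in 1.4% of members and 2.75% of the other peaks. In the 50 bp after the summit the shares were 1.2% and 2.21%. These are few peaks, and the difference in profile was not tested.

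Repeats of GA were the commonest of the short words first searched at tall summits. GAGAGA, on either strand, stood within 100 bp of 237 member summits (47.4%), against 36.9% of the remainder and 14% in each of the windows 1000 bp to either side. The difference from the remainder was 10.5 points (5.97 to 15.1), with 51% of the 500 tallest of replicate 2 and 41.8% of those of replicate 1 holding it. When peaks were ranked by signal per width it was 4.32 points, with an interval that takes in 0 (−0.157 at its lower end). Of all 20 orders of 3 G and 3 A in a hexamer, GAGAGA was the most frequent and AGAGAG (42.6%) the next. Runs of at least 12 alternating bases stood at 29 members (5.8%) and 3.43% of the remainder. Runs of 30 bp or more stood at 2 members, of which the Y24D9A.6 sequence above is the longest.

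The other words of that search had lower or similar shares at tall summits. TGATAA, the core that GATA factors of the gut and epidermis bind, stood at 8% of member summits, 15.7% of the other summits and 19% and 19.6% of the member flanks, a difference between summits of −7.67 points (−10.01 to −4.77). TATAAA stood at 9% against 13.02%. Both words are rich in A and T, and their shares within bands of GC content were not computed. GGGCGG, the core of Sp-factor sites, stood at 9.4% against 8.72%, with 3.2% and 3.8% in the flanks. GGTTCGA, part of the internal promoter of tRNA genes, stood at 1.6% against 3.50%.

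A census of all 26516 8-letter words found at member summits was made after these results were seen, with 6- and 7-letter words also looked at. By the share at member summits minus the mean share in their flanks, AGACGCAG came first. It stood at 103 member summits (20.6%) and in 0.8% and 1% of the flanks, and at 10.9% of the other peaks. The next words, GAGACGCA (19.6%) and GACGCAGA (19%), overlap it, and the fourth, GAGAGAGA (16%), is a GA repeat. ACACACAC, a CA repeat, stood at 11.4% of members and 5.40% of the remainder. Since the word was picked from these peaks, its shares are a description.

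AGACGCAG was not confined to promoter members. It was found in 20.1% of promoter members, 25.9% of intronic members and 19.8% of those between genes. It stood at 2 of 6 members in other exons, and at none of the 11 in non-coding genes or the 3 in coding exons. At ribosomal members the word was rarer, with 1 of 29 (3.45%). In the 500 tallest of each replicate its share was 17% in replicate 1 and 21.6% in replicate 2. Of the 103 members with it, 66 also held GAGAGA and 37 did not, and either word stood at 54.8% of members and 40.9% of the remainder. In the 50 bp before the summit, by genome coordinates, AGACGCAG stood in 10% of members and 4.32% of the other peaks. In the 50 bp after the summit the shares were 5.4% and 4.21%. The epg-9 sequence above holds it in 2 places.

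Base composition moved with these words. Within 100 bp of their summits, members had a median GC content of 46.0%, against 41.3% at the other summits and 36.7% in the members' flanks. Within bands of GC content the member share of GAGAGA was 25.7% against 26.7% below 40% GC, 41.3% against 39.3% from 40 to 45%, 57.1% against 46.5% from 45 to 50%, and 54.9% against 51.8% above. For AGACGCAG the same bands gave 9.46% against 7.32%, 16.1% against 10.8%, 22.98% against 14.3% and 29.5% against 18.7%. The GAGAGA difference was under 4 points in each band but that from 45 to 50%, and that of AGACGCAG had an interval that takes in 0 in the lower pair of bands (−2.83 to 11.0 and −0.123 to 12.4). The bands, like the word AGACGCAG, were chosen after the values were seen.

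**Figure D5:**
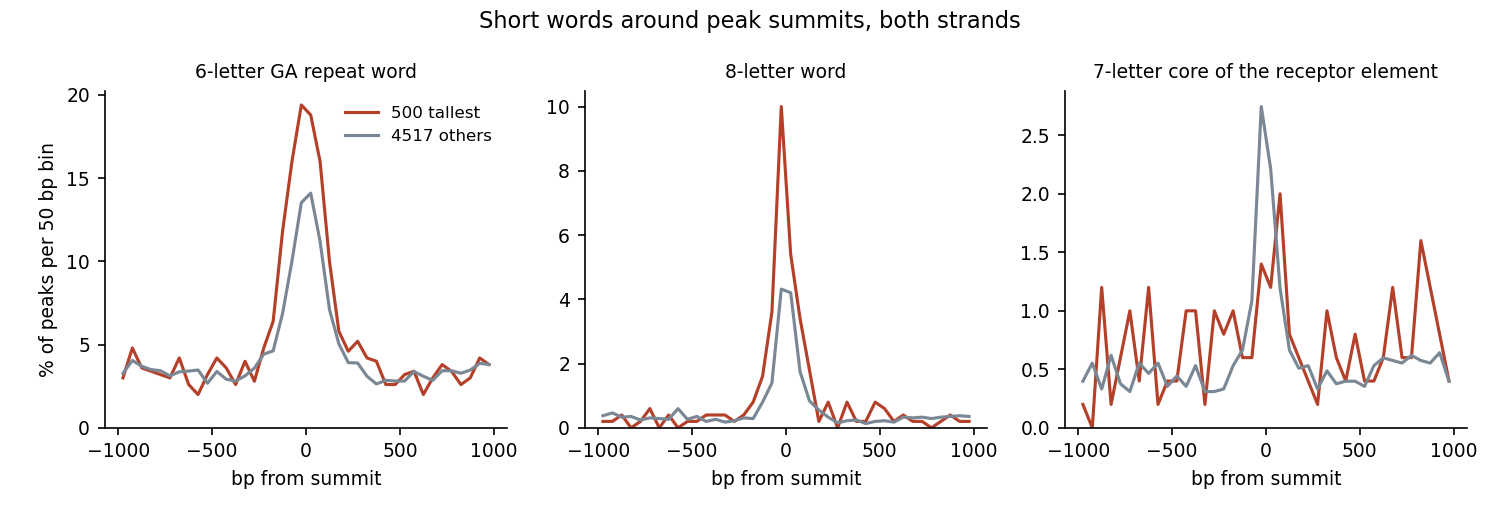
Percentage of peaks with a word in each 50 bp bin by distance from the summit, for a 6-letter GA repeat, the 8-letter word that led the census and the 7-letter core of the receptor element, for the 500 tallest and the other 4517 peaks. The first 2 peak at the summit and higher in the members. In the bin before the summit, by genome coordinates, the 8-letter word stood at 10% against 4.32%, and in the bin after it at 5.4% against 4.21%. The core is lower in the members in both bins (1.4% against 2.75% before the summit).

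Word shares at the ribosomal members were set beside those of the rest of the group. Of the 29, GAGAGA stood at 6 (20.7%, exact 95% interval 7.99 to 39.7%) and AGACGCAG at 1 (3.45%), against 49.0% and 21.7% of the other 471 members. Below the height limit these gaps were smaller, with GAGAGA at 32.5% of 40 ribosomal promoter peaks against 36.9% of the other peaks there, and AGACGCAG at 7.5% against 10.9%. None held the receptor element. GGCCTAAA stood at 8 of the 29 (27.6%) and at 1 of the other 471 (0.212%). That word was picked with earlier results of these data known, so its shares are a description. Of the 40 lower ribosomal peaks, 11 held it (27.5%), against 26 of the 4477 remaining peaks there (0.581%). Median GC content was 43.8% for the ribosomal and 46.8% for the other members, and median height 254.3 and 230.7.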

How the data were processed

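Per the labels, the data are peak lists from ChIP-seq of 2 biological replicates of 1 group. The authors deposited a signal (height) per peak, its −log10 q-value and an offset to its summit, in lists of 30000 regions per replicate, including background, and in an IDR list drawn from pooled reads and both replicates. The aligner, peak caller and read depth are unknown here, so no floor from reads could be set, and control lists were not used. Members, gene lists and words were chosen with earlier results of these data known.

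Ranks, gene windows, words on both strands and shares were computed with Python 3.11.15, pandas 2.3.3 and scipy 1.17.1, with genes of Ensembl release 115 and piRNA genes left out of classes. Second copies were sought with blastn 2.17.0. Shares have exact Clopper-Pearson intervals, and differences 95% Newcombe intervals, with no p-value. Replicate alternatives used each replicate's own tallest regions. Interval and word counting were checked on simulated data. Named genes were those of ranks 1 to 40, up to 4 per list, those at the height limit, the tallest with the receptor element or outside promoters, and the most uneven between replicates. Some of these are left unnamed, and cluster, small RNA and word examples were chosen after their values were seen. Positions are 1-based.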

Additional observations from a re-analysis of the deposited data

How the results depend on the processing

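Differences between the 500 tallest and the other peaks are in percentage points. Of the alternatives to shares and counts, the close upstream, coding exon, opposite-strand and tRNA gene differences kept their sign with intervals clear of 0 in each one tried. The promoter difference was 4.28 without replicate 1, where its interval took in 0, and 8.83 without replicate 2, within a range over all alternatives of 4.11 (the 1000 tallest) to 9.57 (windows of 1000 bp). The X difference ran from 1.55 without replicate 2 to 4.82 without replicate 1, with 2.08 for the 250 tallest and −0.474 by signal per width. By that ranking the receptor element differed by 0.391 and GAGAGA by 4.32. With 50 bp searched, the element differed by −1.41, its interval clear of 0. Second copies differed by 0.109 for the 250 tallest, −0.745 for the 1000 tallest and −2.11 at 90% identity over 50 bp. Genes with a member numbered 496, but 283 with 500 bp windows and 311 by nearest 5′ end. In these cases the cause was not tested. Alternatives for GAGAGA and AGACGCAG were chosen after seeing the data, and since AGACGCAG was picked from these summits its alternatives say nothing of stability. No paired analysis was possible because there is a single group. Depth is unknown, so intervals cover counting of peaks only.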
